A study of Rattus norvegicus with 12 samples.

Results

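The genes described here encode G protein subunits, the RGS proteins that switch G proteins off, and the enzymes that make, sense and destroy cyclic AMP and cyclic GMP, measured in rat mixed CNS glial cultures after 6 hours with cytokines. They were chosen by symbol alone. A probe set was a member when the array annotation gives it 1 gene symbol that starts with Gna, Gnb, Gng, Rgs, Adcy, Gucy or Prka, or with Pde followed by a digit. This found 97 probe sets of 67 genes, out of 4736 genes that have a probe set with 1 symbol. There were 9 G alpha, 5 G beta and 5 G gamma subunits, 9 RGS proteins, 7 adenylyl cyclases, 3 subunits of soluble guanylyl cyclase, 5 membrane guanylyl cyclases, 6 subunits of protein kinase A and 12 phosphodiesterases. The prefixes also take in 4 subunits of AMP-activated kinase, an energy sensor that does not respond to cyclic AMP, and the neuropeptide PACAP with its receptor (2 genes, Adcyap1 and Adcyap1r1). A gene with several probe sets (21 genes, up to 4 probe sets each) is represented by the brightest, the one with the highest mean log2 signal over all arrays, unless its probe sets are named.

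The cultures were prepared by shake-off from neonatal rat brain and kept in a defined medium that held fetal bovine serum at 2%, which every group shared. They are mixtures of astrocytes, oligodendrocytes, their precursors and microglia, so a signal cannot be assigned to a cell type, and fewer cells of a type cannot be told apart from less RNA per cell. In each of 3 separate experiments, 1 culture was the control and the others received cytokines at 10 ng/ml each for 6 hours. The labels give Th1 cytokines as TNF-a, g-CSF, IL-2 and interferon-g, monocyte/macrophage (M/M) cytokines as IL1a, IL1b, IL-12p40 and TNF-a, and Th2 cytokines as porcine TGF-b1, IL-10, IL-5 and G-CSF. The methods add IL-6 to the M/M and IL-4 to the Th2 mixture, and this difference is unresolved.

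A receptor coupled to a G protein acts by making the alpha subunit exchange GDP for GTP and part from the beta-gamma pair. Gs alpha stimulates adenylyl cyclase and Gi alpha inhibits it, while RGS proteins speed up the hydrolysis of GTP on Gi and Gq alpha and so end the signal. Cyclic AMP frees the catalytic subunits of protein kinase A from their regulatory subunits, and phosphodiesterases break the cyclic nucleotide down. In glia, a rise in cyclic AMP is known to dampen inflammatory responses of microglia and to promote differentiation of astrocytes and oligodendrocytes.

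Each of the 12 Affymetrix rat arrays measured 1 culture, and this number limits the precision. Array medians lay between 24.5 and 61.0 (arbitrary signal units) and were lowest in experiment 3 in every group. Control arrays had medians of 59.1, 38.4 and 26.9 in experiments 1, 2 and 3, so a difference from control is given both on the deposited scale and after each array was centred on its own median log2 signal. Experiment 3 also stood apart in its differences from control with Th1 and Th2 cytokines, and less so with M/M. After centring, these correlated across probe sets between experiments 1 and 2 with r of 0.113 (Th1), 0.227 (M/M) and 0.111 (Th2). With experiment 3 the values were -0.0642 to 0.0209 (Th1), 0.107 to 0.223 (M/M) and 0.0192 to 0.0674 (Th2), so differences over experiments 1 and 2 alone are given beside the main results. Among microglial markers, Cd74 with Th1 was at 989, 344 and 3.7 in experiments 1, 2 and 3. With M/M it was at 49.0, 10.5 and 1380, against controls of 41.05, 5.11 and 4.1. Cd14 had 2722, 2822 and 739 with Th1 and 941, 648 and 1991 with Th2, against controls of 773, 365 and 366. Means over 3 experiments include these values, and the reason for them was not tested. Markers of astrocytes (6 of 7 listed genes measured), oligodendrocytes (7 of 8), their precursors (3 of 4) and microglia (7 of 8) were all above 0, whereas Gfap had no probe set with 1 symbol. The 7 neuronal markers measured lay at the 38.5 to 86.0 percentile of signal and the 4 endothelial ones at the 20.8 to 49.9 percentile. The 5 fibroblast markers lay at the 42.3 to 93.0 percentile, with Col1a1 (93.0) and Col3a1 (89.3) the brightest. Their summed control signals were 3388, 553 and 1632 in experiments 1, 2 and 3.

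No member differed from control by an adjusted p under 0.05. The nearest to it was Pde4b, a phosphodiesterase that destroys cyclic AMP, with M/M cytokines. It was above control in 3 of 3 experiments, as were 31.8% of all genes. Next came Gnb3, a G beta subunit, also with M/M (adjusted p = 0.12 and 0.166 by limma). Within the Th2 comparison the lowest was Rgs1, above control in 3 of 3 experiments. Rgs18 and Rgs19, further RGS genes, had an unadjusted p under 0.05 with at least 1 mixture. By limma with Benjamini-Hochberg adjustment over 8740 probe sets, 0 of 67 genes passed for Th1, M/M or Th2 cytokines, and the lowest adjusted p among them was 0.857, 0.12 and 0.642. Over all probe sets, 0.0%, 0.263% and 0.0114% passed. With only the M/M and control arrays in the fit, Pde4b, Rgs18 and Gnb3 passed (adjusted p = 0.0283, 0.0167 and 0.0494 by limma), where 4.45% of all probe sets did. That fit has fewer residual degrees of freedom than the main one. Rgs18 went opposite ways there, with M/M above control in experiment 2 (102 against 67.7) and below it in the others. Screening criteria modelled on those of the methods took 3, 4 and 2 members with Th1, M/M and Th2, beside 2.39%, 5.68% and 2.77% of all genes. They were over 2-fold and an unadjusted p under 0.2 by analysis of variance on linear signals. The fold here was the mean log2 difference within experiments, whereas the methods name mean expression. At an unadjusted p under 0.05, 3 members were higher and 1 lower with Th1, 6 higher and 1 lower with M/M, and 4 higher and 1 lower with Th2 cytokines. Among all genes 4.75%, 15.3% and 6.23% were higher at that level and 0.76%, 0.57% and 0.486% were lower. With arrays centred the counts were 2 higher and 4 lower, 2 higher and 7 lower, and 2 higher and 2 lower, beside 3.53%, 5.17% and 4.35% higher and 3.38%, 9.21% and 3.55% lower among all genes.

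Median log2 differences of the 67 genes from control were 0.17 (Th1), 0.26 (M/M) and 0.15 (Th2), while that of all genes was 0.13, 0.31 and 0.19. In experiment 1 the medians of the members were -0.12, -0.10 and -0.05, in experiment 2 they were 0.59, 0.39 and 0.54, and in experiment 3 they were -0.05, 0.59 and 0.15. After centring, the medians were 0.01, -0.16 and -0.06 against -0.03, -0.12 and -0.02 for all genes. On the deposited scale 45, 48 and 45 members had a mean above control, where 66.4%, 79.1% and 70.3% of all genes did, and after centring 35, 22 and 31 did, beside 47.0%, 39.4% and 47.4% of all genes. The members as a whole thus lay near the middle of the array. Values were higher than control in 3 of 3 experiments for 8, 12 and 18 members, where 14.3%, 31.8% and 26.9% of all genes were, and lower in 3 of 3 for 4, 1 and 5, where 5.38%, 3.63% and 6.57% were. The comparisons share their control arrays, so agreement between mixtures is not independent.

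**Figure D1:**
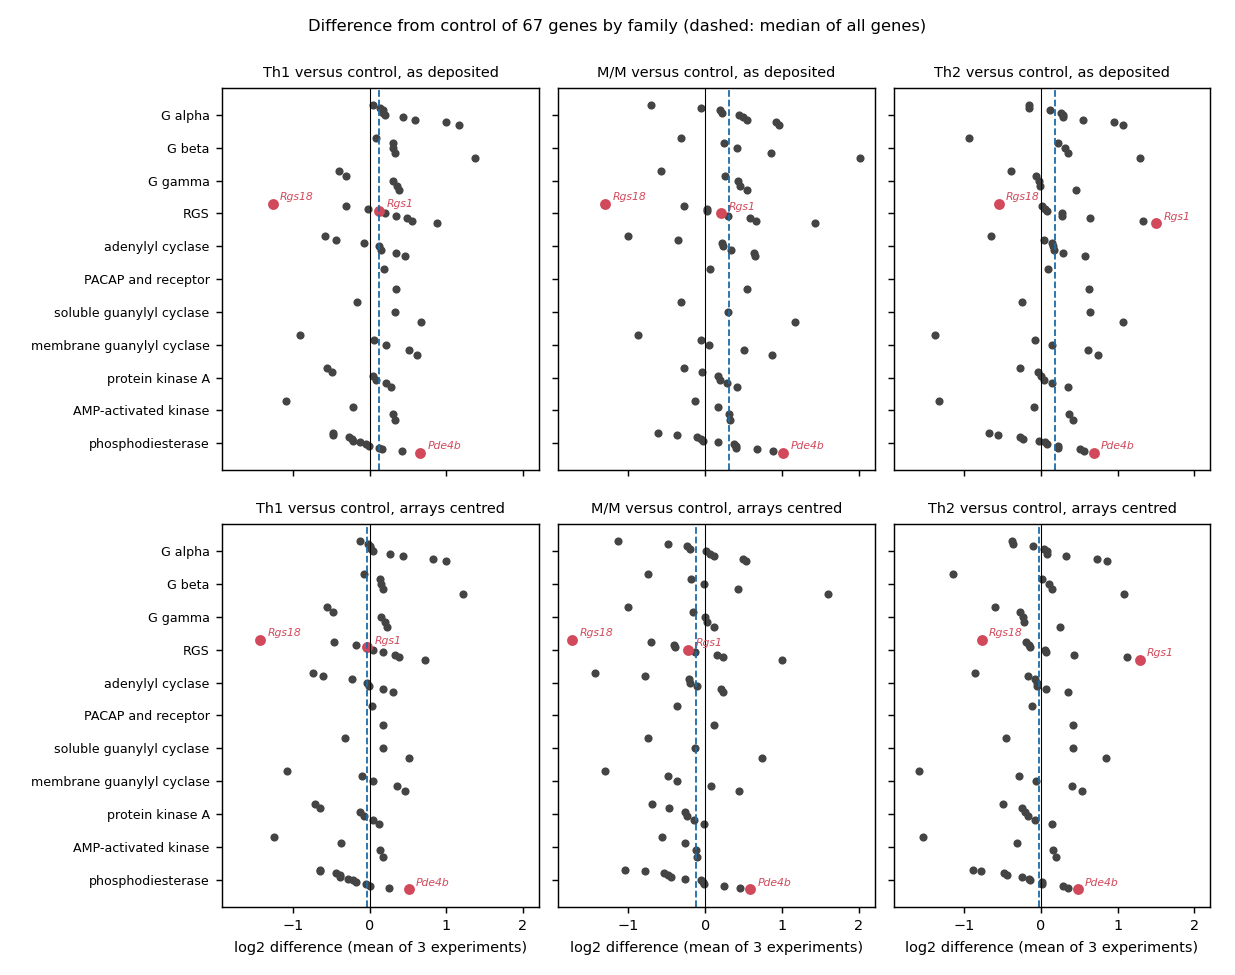
Log2 difference from control (x axis, mean of 3 experiments) of the 67 genes, 1 point a gene by its brightest probe set, in rows by family, for Th1, M/M and Th2 cytokines as deposited (top) and with arrays centred on their medians (bottom). The solid line is 0 and the dashed line is the median of all genes, 0.13, 0.31 and 0.19 on top. Red points are Pde4b, Rgs1 and Rgs18. Pde4b stands to the right of the dashed line in all panels and Rgs18 to the left, and Rgs1 is the point furthest to the right with Th2 cytokines.

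Among the G alpha subunits, Gnas, which encodes Gs alpha, had a control signal of 4540.0 ± 296 (mean ± SD, n = 3) and log2 differences of 0.04 (Th1), 0.22 (M/M) and 0.12 (Th2 cytokines), with an SE of 0.16 each. Its 4 probe sets lay between -0.03 and 0.35 in the 3 comparisons. Gnai2, for a widely expressed Gi alpha subunit, had control signals of 2227, 1303 and 1404 in experiments 1, 2 and 3, and 2162, 1713 and 3056 with M/M cytokines. The M/M value was below control in experiment 1 and highest in experiment 3, and the log2 difference was 0.49 (SE 0.22, unadjusted p = 0.0467, adjusted p = 0.307 by limma). It was 0.06 with arrays centred and 0.18 over experiments 1 and 2. Gnao1, the Go alpha subunit known from neurons, had 0.43, 0.54 and 0.55 in the same order (SE 0.36). Its Th1 signals of 50.7, 188 and 50.7 were above the controls of 68.2, 56.1 and 52.0 in experiment 2 alone. Gnaz, for a Gi-like subunit, had 1.16, 0.92 and 1.07 (SE 0.57) by its brightest probe set. There each mixture was below control in experiment 1 and above it in experiments 2 and 3. Its dimmer probe set J03773_s_at (22.1 percentile) was above control in every experiment with each mixture, from controls of 5.86, 6.9 and 4.9. With Th1 cytokines 9 of 9 G alpha genes had a mean above 0 (0.04 to 1.16), where 66.4% of all genes did. After centring 7 of 9 did (-0.12 to 1.0), beside 47.0% of all genes. With M/M and Th2 it was 7 of 9 each as deposited, beside 79.1% and 70.3%. After centring it was 5 and 6 of 9, beside 39.4% and 47.4%. Gna15, a Gq-class subunit of blood cells, had 0.18, -0.06 and -0.15, and Gna12 had 0.14, 0.44 and 0.29.

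**Figure D2:**
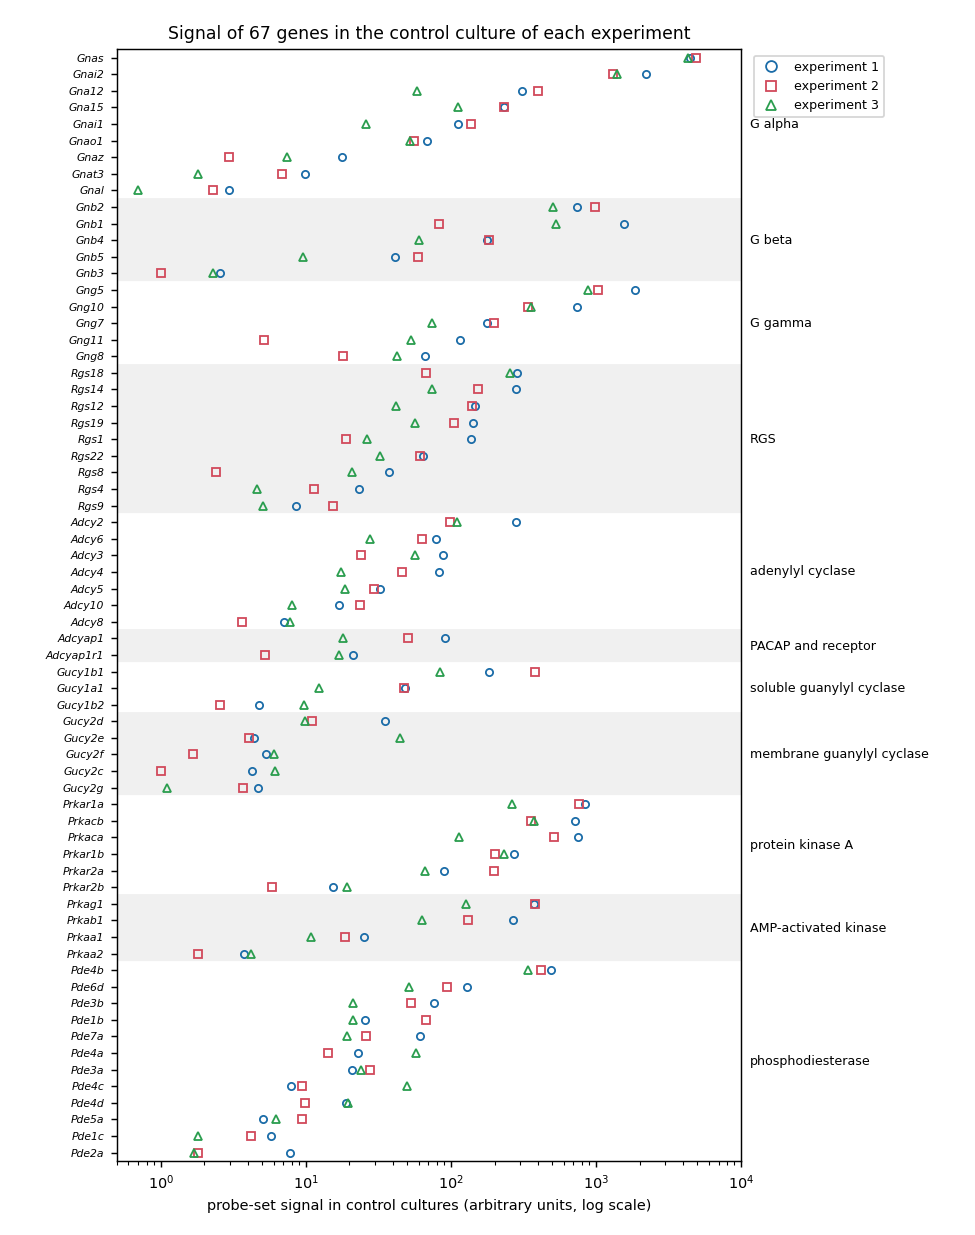
Signal of the brightest probe set of each of the 67 genes (rows, by family) in the control culture of experiments 1, 2 and 3 (symbols). The x axis is in arbitrary units on a log scale, and positions of different genes are not comparable amounts of RNA. The 3 controls of a gene often lie apart, as for Gnb1 (1558, 82.9 and 529), Gng11 (116, 5.15 and 53.0) and Rgs8 (37.7, 2.39 and 20.8), whereas those of Gnas and Pde4b lie close together.

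For G beta, Gnb1 gave different pictures by probe set. Its brightest one, U88324_g_at, had controls of 1558, 82.9 and 529, Th1 signals of 1764, 160 and 465, M/M signals of 1334, 510 and 600.2, and Th2 signals of 225, 89.1 and 492. The Th2 culture of experiment 1 was at 0.144 times its control, while those of experiments 2 and 3 were at 1.07 and 0.93 times theirs. Its log2 differences, in the order Th1, M/M, Th2, were 0.31, 0.86 and -0.93 (SE 0.55, adjusted p = 0.939, 0.447 and 0.743). A second probe set from the same sequence record, U88324_at, had 0.57, 1.16 and -0.50, whereas AF022083_s_at had 0.38, 0.69 and 0.37, positive with Th2 as well, and its Th2 ratios to control were 1.01, 1.60 and 1.32. The low Th2 value is thus seen by 2 of 3 probe sets and in 1 of 3 experiments. Gnb2, the other widely expressed beta subunit, had 0.09, 0.25 and 0.36 (SE 0.23).

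Gnb3, a beta subunit known from cone photoreceptors, had controls of 2.57, 1.0 and 2.30 and M/M signals of 11.1, 7.93 and 4.50. The log2 difference was 2.02 (SE 0.59, adjusted p = 0.166 by limma), with 1.60 after centring. With Th1 it was 1.38 and with Th2 1.29 (unadjusted p = 0.0346 and 0.046, adjusted p = 0.857 and 0.717). This probe set lies at the 11.8 percentile of signal, among the dimmest 25 percent, and each array holds 197 to 466 probe sets at or below a signal of 1, so these ratios are of signals near the bottom of the scale. The photoreceptor markers measured (2 of 4) lay at the 12.2 to 24.6 percentile, with summed signals of 3.0 to 30.6 in control and 14.5 to 21.6 in M/M cultures.

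The G gamma genes behaved in a similar way. Gng10 had controls of 737, 341 and 356 and M/M signals of 713, 538 and 734, below control in experiment 1 and above it in the others (log2 difference 0.55, SE 0.21, unadjusted p = 0.0236, adjusted p = 0.263). It was 0.12 with arrays centred. Gng5 had 0.36, 0.26 and -0.01 by its brightest probe set, with Th1 signals above control in 3 of 3 experiments (ratios 1.18, 1.39 and 1.28). Its dimmer probe set M95780_at had 0.93, 1.76 and 1.47 (SE 0.58, adjusted p = 0.857, 0.207 and 0.715), and in experiment 2 it was 8.79, 11.7 and 9.73 times a low control. Gng11 (-0.40, -0.57 and -0.06) and Gng8 (0.39, 0.43 and -0.39) went opposite ways in different experiments. With M/M cytokines Gng11 was at 0.32, 1.59 and 0.60 times control in experiments 1, 2 and 3.

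**Figure D3:**
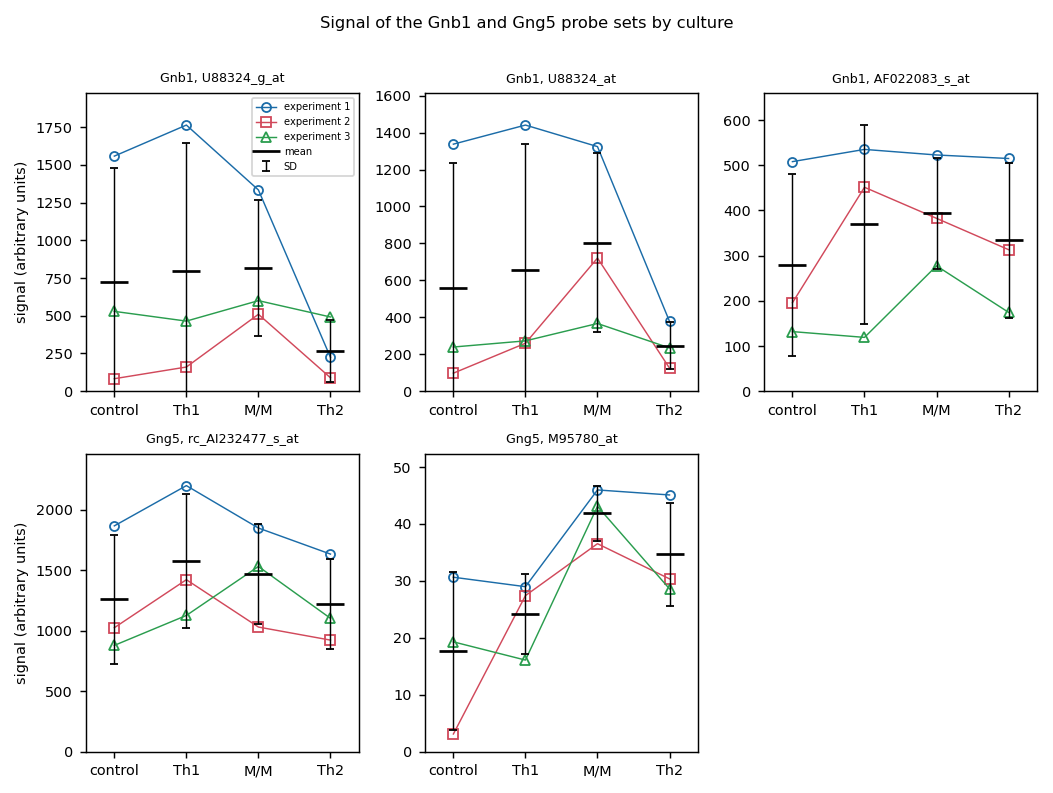
Signal (y axis, arbitrary units from 0) of the 3 Gnb1 and 2 Gng5 probe sets in control, Th1, M/M and Th2 cultures. Coloured symbols joined by lines are experiments 1, 2 and 3, bars are the mean and whiskers the SD (n = 3, not drawn below 0). The Th2 point of experiment 1 is low in the U88324 probe sets and not in AF022083_s_at, and the Gng5 probe set M95780_at has its low control in experiment 2.

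The sequence before the RefSeq start (assembly GRCr8) is shown for Pde4b, Rgs1 and Rgs18, the members with the lowest unadjusted p against control in the M/M and Th2 comparisons and the member furthest below control with Th1 and M/M. Each run is 250 bases long, 5′ to 3′ on the strand of the gene, at chr5:122028706-122028955 (plus strand) for Pde4b, chr13:58573188-58573437 (minus) for Rgs1 and chr13:59066343-59066592 (minus) for Rgs18. Capitals mark a match to TGACG, the core of the cyclic AMP response element, on either strand.
Pde4b: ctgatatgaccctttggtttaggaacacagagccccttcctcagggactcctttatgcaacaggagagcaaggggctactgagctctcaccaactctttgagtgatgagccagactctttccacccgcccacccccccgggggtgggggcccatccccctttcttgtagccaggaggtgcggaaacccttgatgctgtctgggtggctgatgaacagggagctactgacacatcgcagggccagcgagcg
Rgs1: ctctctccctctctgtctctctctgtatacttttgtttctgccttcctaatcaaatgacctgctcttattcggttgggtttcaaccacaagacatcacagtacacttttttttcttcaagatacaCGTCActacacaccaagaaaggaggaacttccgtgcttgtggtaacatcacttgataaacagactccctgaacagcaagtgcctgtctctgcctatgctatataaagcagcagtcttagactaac
Rgs18: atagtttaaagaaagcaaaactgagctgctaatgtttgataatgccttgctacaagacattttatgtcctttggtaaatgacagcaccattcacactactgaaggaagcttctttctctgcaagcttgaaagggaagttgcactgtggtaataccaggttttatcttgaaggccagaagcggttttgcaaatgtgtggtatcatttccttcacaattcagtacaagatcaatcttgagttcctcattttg
Of the 3, Rgs1 alone held the core, on the reverse strand and 125 bases before the start. The core occurs in 18.2% of 33469 such windows and in 9 of the 51 members that could be matched (17.6%). The full element TGACGTCA occurs in 1.59% of windows and in 1 member, the interferon-gamma activation motif TTCNNNGAA in 7.67% and 1 member, and the kappaB motif in 6.33% and 4 members, counting both strands, and the 3 runs hold none of these. The core is contained in the full element. The shares in the members were close to those in all windows for the core. Pde4b is transcribed from several starts, so the window may not be that of the transcript the probe sets detect, and its base composition (58.8% G and C) differs from those of Rgs1 (42.8%) and Rgs18 (38.4%).

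The RGS genes held both the lowest value with Th1 and M/M and the highest with Th2 cytokines. Rgs1, known from activated lymphocytes and microglia as a brake on chemokine receptors, had controls of 137, 19.0 and 26.3, Th1 signals of 79.8, 33.2 and 33.7, M/M signals of 134, 55.0 and 14.3, and Th2 signals of 368, 95.5 and 43.9. In each experiment the Th2 culture was the highest of the 4, at 2.69, 5.03 and 1.67 times its control, although the groups overlap because experiment 1 was high throughout. The Th2 log2 difference was 1.5 (SE 0.45, unadjusted p = 0.00535, adjusted p = 0.642), against 0.13 for Th1 and 0.21 for M/M. It was 1.29 after centring and 1.88 over experiments 1 and 2. Tested directly, Th1 minus Th2 was -1.37 and M/M minus Th2 was -1.29 (SE 0.45 each, unadjusted p = 0.00932 and 0.0131), and neither passed adjustment (adjusted p = 1.0 and 0.998).

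Rgs18, known from platelets and myeloid cells, had controls of 286, 67.7 and 257, Th1 signals of 67.7, 67.3 and 79.3, M/M signals of 114, 102 and 28.4, and Th2 signals of 148, 112 and 94.5. The treated cultures were below control in experiments 1 and 3. In experiment 2 the control was itself at the level of the Th1 cultures, and the M/M and Th2 cultures were at 1.51 and 1.66 times it. The log2 differences were -1.26 (SE 0.52, unadjusted p = 0.0309, adjusted p = 0.857), -1.30 (unadjusted p = 0.0266, adjusted p = 0.268) and -0.55 for Th1, M/M and Th2. Over experiments 1 and 2 they were -1.04, -0.37 and -0.11, so the M/M value rests largely on experiment 3.

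Rgs19, which acts on Gi alpha subunits, had controls of 143, 106 and 56.8, Th1 signals of 140.0, 178 and 108, M/M signals of 178, 159 and 119, and Th2 signals of 176, 151 and 123. M/M and Th2 cultures were above the control of the same experiment in 3 of 3, and Th1 in 2 of 3. Its log2 differences were 0.55, 0.66 and 0.64 (SE 0.25, unadjusted p = 0.049, 0.0224 and 0.0244, adjusted p = 0.857, 0.257 and 0.715). After centring they were 0.39, 0.23 and 0.43, with unadjusted p values of 0.118, 0.341 and 0.0869. Rgs8 had 0.88, 1.43 and 1.33 (SE 0.76). In experiment 2 a control of 2.39 stood against 33.0, 35.7 and 42.9 in the treated cultures, while the ratios in experiments 1 and 3 lay between 0.572 and 1.45. Without that experiment the Th1 value was -0.58 and the Th2 value -0.09. Rgs4, which is prominent in neurons, was above control in experiments 1 and 2 with each mixture and below it in experiment 3 (0.49, 0.03 and 0.08).

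Rgs1 and Rgs18 are known from immune cells, so the microglial markers are given beside them. The 7 markers measured of 8 listed (Itgam, Aif1, Csf1r, Ptprc, Cd74, Lyz2 and Cd14) had summed signals of 2323 to 5616 in control, 2535 to 8900.0 in Th1, 6296 to 8711 in M/M and 3836 to 6214 in Th2 cultures. They lay at the 26.4 to 98.2 percentile of signal. Cd14, the lipopolysaccharide co-receptor, was the 1 marker of the 7 that passed, and rose with M/M cytokines (log2 difference 2.55, adjusted p = 0.0486). With arrays centred it had 2.12 and no marker passed (lowest adjusted p = 0.192). Its own signal went from 773, 365 and 366 in control to 3433, 2735 and 2185 in M/M cultures, a large part of the difference in the sums. After centring, 5 of the 7 were above 0 with M/M and 2 below (median 0.13, range -0.34 to 2.8). The 2 below were Csf1r and Ptprc (-0.34 and -0.04). The highest was Cd74, whose M/M signal of 1380 in experiment 3 stood against 49.0 and 10.5 in experiments 1 and 2. The part of microglia in the RGS values was not tested.

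**Figure D4:**
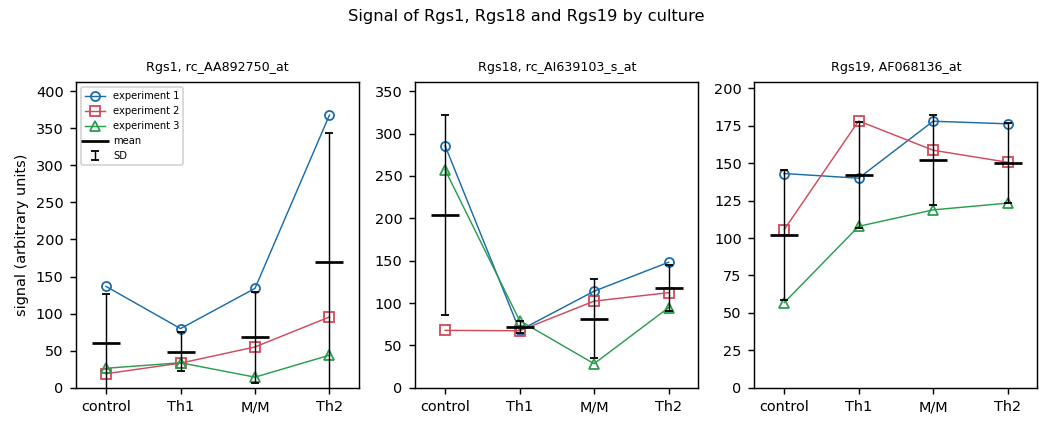
Signal (y axis, arbitrary units from 0) of Rgs1, Rgs18 and Rgs19 in control, Th1, M/M and Th2 cultures. Coloured symbols joined by lines are experiments 1, 2 and 3, bars are the mean and whiskers the SD (n = 3, not drawn below 0). The Th2 point of Rgs1 is the highest of each line, the control of Rgs18 is high in experiments 1 and 3 and low in experiment 2, and the Rgs19 controls lie at or below most treated points of their line.

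The adenylyl cyclases, which make cyclic AMP, showed 0 genes at an unadjusted p under 0.05 on the deposited scale in any comparison with control. With arrays centred, 1 of 7 was lower at that level with M/M cytokines, beside 9.21% of all genes. Adcy3, stimulated by Gs, had 0.34, 0.64 and 0.58 (SE 0.37; Th1, M/M, Th2), and Adcy2, which beta-gamma subunits can activate, had 0.13, 0.22 and 0.17 (SE 0.23). Adcy5 and Adcy6, which Gi and calcium inhibit, had 0.15, 0.65 and 0.29 and -0.07, 0.23 and 0.14. For Adcy5 the M/M signals were 37.9, 43.1 and 42.5 against controls of 32.4, 29.6 and 18.6 (adjusted p = 0.393 by limma). In M96159_at, a probe set of nearly equal brightness, M/M signals were 73.2, 58.1 and 11.9 against controls of 61.6, 29.8 and 6.3. Each was above the control of its experiment. Adcy8, a cyclase stimulated by calcium and calmodulin, had controls of 7.13, 3.62 and 7.80 and M/M signals of 4.41, 2.67 and 2.10, lower in 3 of 3 experiments (log2 difference -1.01, SE 0.54, adjusted p = 0.366). It lies in the dimmest 25 percent. Adcy10, the soluble cyclase that bicarbonate activates, had -0.44, -0.35 and -0.65 (SE 0.60), with ratios to control from 0.259 to 1.35.

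For cyclic GMP, Gucy1a1 and Gucy1b1, which form the soluble guanylyl cyclase that nitric oxide activates, had log2 differences of 0.33, 0.30 and 0.64, and of -0.16, -0.31 and -0.25. Gucy1b1 was at 0.76 and 0.477 times control with M/M cytokines in experiments 1 and 2 and at 1.45 times in experiment 3. After centring, its M/M difference was -0.74 (unadjusted p = 0.028, adjusted p = 0.327). Gucy1b2, a further beta subunit, had controls of 4.73, 2.57 and 9.80 and M/M signals of 4.64, 10.3 and 28.1 (1.17, SE 0.52, unadjusted p = 0.0431, adjusted p = 0.301). Gucy2e, known from photoreceptors, had controls of 4.38, 4.08 and 44.6 and Th2 signals of 1.46, 1.0 and 31.2, lower in 3 of 3 experiments (-1.38, SE 0.57, unadjusted p = 0.0318, adjusted p = 0.717). Both lie in the dimmest 25 percent, and the signal of 1.0 is one that many probe sets share.

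Of the subunits of protein kinase A, 0 of 6 had an unadjusted p under 0.05 against control on the deposited scale. With arrays centred, 1 of 6 was lower at that level with M/M cytokines, beside 9.21% of all genes. Prkaca and Prkacb, the catalytic subunits, had log2 differences of 0.04, 0.17 and -0.04 and of 0.09, 0.19 and 0.00 in that order (SE 0.24 and 0.21). Prkar1a, the regulatory subunit of the soluble holoenzyme, had 0.28, 0.29 and 0.14. Prkar2a, which anchoring proteins hold at membranes, had -0.49, -0.27 and -0.27 (SE 0.31), and its Th1 signals of 79.9, 101 and 52.8 were below controls of 89.5, 197 and 66.4 in 3 of 3 experiments. Prkar2b had -0.55 with Th1, at 0.743, 2.05 and 0.208 times control. With arrays centred, 6 of 6 subunits were below 0 with M/M cytokines (-0.69 to -0.01), as were 4 of 4 subunits of AMP-activated kinase (-0.56 to -0.11), where 39.4% of all genes were above 0. On the deposited scale 4 of 6 and 3 of 4 were above 0. Of the AMP-activated kinase subunits, Prkag1 had the lowest adjusted p of any member on the centred scale with M/M (-0.56, adjusted p = 0.208), and -0.13 on the deposited scale.

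Among the phosphodiesterases, Pde4b, the cyclic AMP-specific enzyme that rolipram inhibits and that inflammatory stimuli are known to induce in myeloid cells, differed most from control. Its brightest probe set had controls of 492, 421 and 338, Th1 signals of 714, 854 and 457, M/M signals of 819, 726 and 982, and Th2 signals of 564, 649 and 807. In each experiment the Th1, M/M and Th2 cultures were above their shared control. Among all genes 14.3%, 31.8% and 26.9% were higher in 3 of 3 experiments. The log2 differences were 0.66, 1.02 and 0.69 (SE 0.26), which correspond to 1.59, 2.03 and 1.62 times control. The unadjusted p values were 0.0222, 0.00156 and 0.018, and the adjusted ones 0.857, 0.12 and 0.715. After centring the differences were 0.51, 0.59 and 0.48, and over experiments 1 and 2 they were 0.78, 0.76 and 0.41 on the deposited scale and 0.47, 0.44 and 0.15 centred. Differences between the mixtures were within error, at -0.36 for Th1 minus M/M, -0.03 for Th1 minus Th2 and 0.33 for M/M minus Th2 (SE 0.26, adjusted p = 0.903, 1.0 and 0.998).

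Of the other Pde4b probe sets, M25350_s_at had 0.85, 1.56 and 1.03 and J04563_at 0.63, 1.43 and 0.75, and both were above control in 3 of 3 experiments with M/M. Their M/M adjusted p values were 0.142 and 0.184. The means of these 3 probe sets had the same direction with each mixture. In single experiments, M25350_s_at was at 0.992 times control with Th1 in experiment 1 and J04563_at at 0.864 times with Th1 in experiment 3. The last one, rc_AA799729_at, lies at the 9.24 percentile of signal and gave -0.17, 0.75 and -1.10 (SE 0.77).

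**Figure D5:**
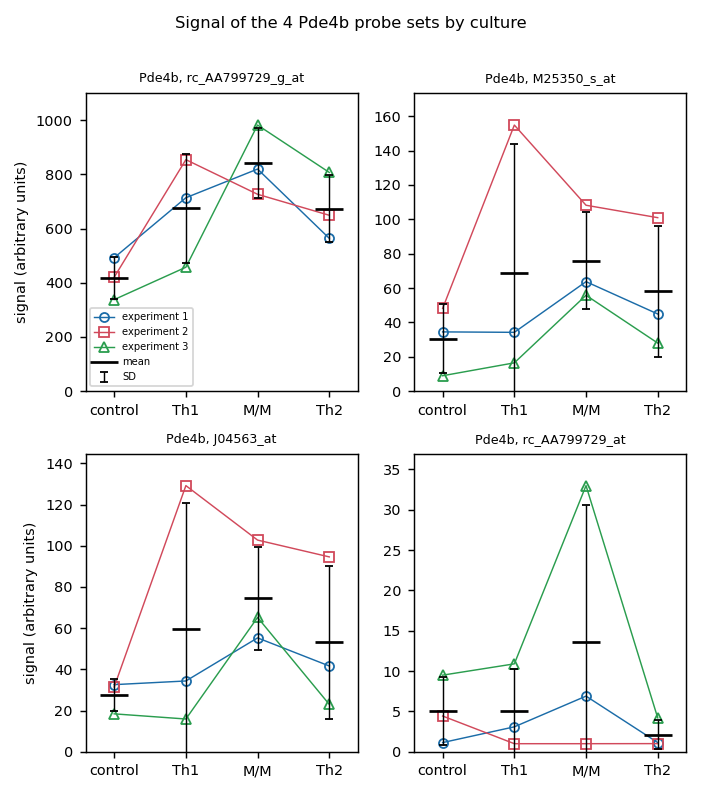
Signal (y axis, arbitrary units from 0) of the 4 Pde4b probe sets in control, Th1, M/M and Th2 cultures. Coloured symbols joined by lines are experiments 1, 2 and 3, bars are the mean and whiskers the SD (n = 3, not drawn below 0). In the brightest probe set each M/M point (726 to 982) lies above the control of its line (338 to 492), whereas the dimmest probe set has no common direction.

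The remaining 11 phosphodiesterases had M/M differences of -0.61 to 0.88, and 0 of them had an unadjusted p under 0.05 against control with any mixture on the deposited scale. With arrays centred, Pde6d, which binds prenylated proteins, was the 1 that did, lower with M/M (adjusted p = 0.367). Pde4d, a further cyclic AMP-specific enzyme, had 0.16, -0.61 and 0.23 (SE 0.53), with M/M signals of 15.1, 16.1 and 4.20 against controls of 18.9, 9.91 and 19.5. Pde4a had -0.23, 0.40 and 0.23 by its brightest probe set and 0.65, 1.03 and 0.54 by M25348_s_at, whose M/M adjusted p was 0.284. Pde1b, which calcium and calmodulin activate, had -0.48, -0.37 and -0.67 (SE 0.48), and rested on a high control of 67.3 in experiment 2. Pde2a, which cyclic GMP stimulates, had -0.48, 0.37 and 0.56 (SE 0.64) and lies at the 8.42 percentile. Between mixtures, Pde5a, the cyclic GMP-specific enzyme, was 1.44 higher with M/M than with Th2 cytokines on the log2 scale (SE 0.63, unadjusted p = 0.0392, adjusted p = 0.998), with signals of 6.02, 9.95 and 30.6 against 2.06, 4.36 and 10.2. By its brightest probe set, Gnb1 differed between M/M and Th2 by 1.79 (SE 0.55, unadjusted p = 0.00616, adjusted p = 0.998) and was the member with the lowest unadjusted p between mixtures. U88324_at had M/M signals of 1324, 721 and 367 against Th2 signals of 378, 125 and 234. AF022083_s_at had 523, 383 and 277 against 515, 313 and 175, which lie closer together. In the 3 comparisons between mixtures 0 members passed, as did 0.0% of all probe sets.

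Upstream and downstream of the members, 4 lists of pathway genes were examined. Of receptors that raise cyclic AMP, 28 of 31 were measured, and 0 passed for any mixture, with median log2 differences of 0.00 (Th1), 0.42 (M/M) and 0.21 (Th2). Of receptors that lower it, 35 of 37 were measured, 0 passed, and the medians were -0.13, 0.40 and 0.11. Of other effectors, brakes and anchors, 32 of 41 were measured, 0 passed, and the medians were 0.18, 0.35 and 0.22. After centring, the medians of these lists lay between -0.29 and 0.02.

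Genes whose transcription follows cyclic AMP through CREB (24 of 29 measured, Pde4b and Pde4d among them) had medians of 0.47, 0.76 and 0.38, against 0.13, 0.31 and 0.19 for all genes, and 0.31, 0.33 and 0.17 after centring. Of these, 1 rose, Junb with M/M cytokines (log2 difference 2.53, SE 0.37, adjusted p = 0.0251), and 0 fell. With arrays centred, Junb had 2.10 and no gene of the list passed (lowest adjusted p = 0.0933). The list was chosen with earlier results of these data known, so its shares beside all genes are a description and no test. At an unadjusted p under 0.05, 6, 10 and 5 of the 24 were higher and 0 lower, where 4.75%, 15.3% and 6.23% of all genes were higher. After centring 6, 7 and 5 were higher, beside 3.53%, 5.17% and 4.35% of all genes. Vgf, a neurosecretory protein, had 1.47, 1.79 and 1.38, Ptgs2, which makes prostaglandin precursors, had 2.36 with M/M (adjusted p = 0.0842) and 1.74 with Th2, and the transcription factor Atf3 had 1.69 with M/M (adjusted p = 0.122). Many of these genes also respond to kinases and NF-kappaB, and the list is no measure of cyclic AMP itself, which was not assayed on these arrays.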

How the data were processed

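The study hybridised RNA of 12 cultures (4 groups of 3) to Affymetrix rat arrays, 1 culture to an array. The authors calculated a linear intensity for each probe set in dChip v1.2 and deposited it, and its settings and any normalization between arrays are not given in the sources used here. Intensities were floored at 0.1 and turned to log2 without rescaling. In limma 3.58.1 (R 4.3.3), 8740 probe sets (59 controls excluded) were fitted with group and experiment as fixed terms (the replicate block), and the prior variance was allowed to depend on mean signal, which left 6 residual and 6.94 prior degrees of freedom. P values received Benjamini-Hochberg adjustment across the 8740, and an adjusted p under 0.05 was called. The title code pairs the 4 arrays of an experiment, and arrays of the same experiment correlated in their deviations from group means (0.439 to 0.708 in 18 pairs, against -0.625 to 0.357 in 36 pairs of different experiments).

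Of the probe sets, 7006 have 1 symbol in the annotation of the array, 308 several and 1426 none, and 2 probe sets with several symbols were not counted as members. A gene was named where its unadjusted p was under 0.05, where it was among the 5 highest or lowest by log2 difference above the dimmest 25 percent of probe sets, where it was among the 10 brightest members, or where it was a listed pathway gene (of these, Gnaq, Pde10a, Rgs2 and Rgs5 had no member probe set). A few further members were named after their values were seen. The members, pathway lists and markers were chosen with earlier results of these data known. The fit was tested on simulated data. Alternatives were 2 scalings of the arrays, other treatments of the experiment, the floor, the variance prior, dim probe sets, the probe set that stands for a gene and the digit in the member rule, leaving out each replicate, and the variance analysis named in the methods. Upstream sequence was taken from RefSeq (GRCr8). RNA quality, immunofluorescence and QRT-PCR were not analysed here.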

Additional observations from a re-analysis of the deposited data

How the results depend on the processing

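No member passed an adjusted p of 0.05 under any scaling, floor, variance prior, filter, choice of probe set or reading of the member rule, or with 1 array or 1 experiment left out, so the counts without a replicate ranged from 0 to 0. There were exceptions. The fit of the 2 compared groups alone called 3 members with M/M cytokines (Pde4b, Rgs18 and Gnb3), where 4.45% of all probe sets passed. Screening criteria modelled on those of the methods took 3, 4 and 2 members with Th1, M/M and Th2, where 2.39%, 5.68% and 2.77% of all genes met them. They were over 2-fold by the mean log2 difference and p under 0.2, unadjusted, by analysis of variance. In the 2-group fit Pde4b had 1.02 (adjusted p = 0.0283 by limma), Rgs18 -1.30 (0.0167) and Gnb3 2.02 (0.0494). It has fewer residual degrees of freedom than the main fit, and Rgs18 was above control in experiment 2. With no replicate block 0 members were called, and with a random replicate block 0. The M/M median of the members moved from 0.26 to -0.16 with arrays centred and to -0.17 over experiments 1 and 2 with arrays centred, an alternative chosen after seeing the data.

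Of 772 values for 37 named results, 748 kept direction and side of the threshold, 3 newly passed it (those of the 2-group fit) and 21 changed sign, and the cause was not tested. Over experiments 1 and 2 with arrays centred, Gnai2 with M/M was -0.14, Gng10 with M/M -0.01 and Gng8 with Th2 0.02. With a replicate left out, values that crossed 0 ranged from -1.04 to 0.03 for Pde1b, -1.35 to 0.30 for Prkar2b, -0.08 to 1.32 for Rgs4 and -0.58 to 1.72 for Rgs8 with Th1, from -0.02 to 1.40 for Gnb1, -0.83 to 0.32 for Pde1b and -1.27 to 0.19 for Pde4d with M/M, and from -1.23 to 0.22 for Adcy10, -1.13 to 0.28 for Gng8 and -0.09 to 2.08 for Rgs8 with Th2. Pde4b with M/M ranged from 0.44 to 1.48 over its alternatives (adjusted p 0.0283 to 1.0) and Rgs1 with Th2 from 1.03 to 1.88 (0.229 to 1.0). Members in the dimmest 25 percent (14 of 67) have signals near the bottom of the scale.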
